A study of Mus musculus with 12 samples.

Results

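Sucrose refeeding was examined in the livers of mice with the genotype MED13-LKO, by comparing the libraries of 2 sucrose-fed mice with those of 2 fasted mice, which are 4 of the 12 libraries of the series. The members were chosen by the genotype and diet in the labels. The mice, given as C57BL6J and aged 12 weeks, carried floxed *Med13* alleles (*Med13* fl/fl) and *Alb*-Cre, which is active in hepatocytes and leaves other liver cells with the floxed gene. The fasted mice went 16 h without food overnight. The sucrose group ate normal chow for 4 h and drank water with 30% sucrose. The control mice used for comparison carried the same floxed alleles without Cre, with 2 mice fasted and 2 fed sucrose, and a further MED13-LKO pair received fructose in place of sucrose. Values of a control pair fed fructose are given for a few genes. According to the study's methods all mice had been trained to eat by day, and the fasted mice were killed in the morning and the fed mice in the early afternoon, so feeding and time of day cannot be told apart. Sucrose was given together with chow, so the sugar and the meal cannot be told apart either.

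MED13 belongs to the kinase module of Mediator, a bridge between gene-specific regulators and RNA polymerase II, and tethers that module to the core complex. When a fasted animal eats, insulin rises and glucose and fructose reach the liver. SREBP-1c and ChREBP then activate the genes of glycolysis and fatty acid synthesis, while phosphorylated FOXO1 leaves the nucleus and the genes of glucose production are turned down. The comparison asks which of these parts of the feeding response can be seen in liver RNA from MED13-LKO mice.

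The deposited values are normalized counts for 16346 genes, of which 12366 had an average of 10 or more across the 12 libraries and were tested. In the 4 libraries the normalized counts summed to between 17.4 M and 18.7 M, and the steps between low values placed the reads behind them at 18.1 M to 24.2 M. Differences are given as log2 fold changes of the normalized count + 1 from limma, with the standard error (SE) and the Benjamini-Hochberg adjusted p-value. A gene is called when that adjusted p is under 0.05. Between the 2 mice of a group, the median absolute log2 difference of a gene was 0.17 when fasted and 0.15 with sucrose. With 2 mice per group, p-values rest on a spread shared over all 6 groups.

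*Med13* lies on chromosome 11, and loss of its RNA was not seen in MED13-LKO mice. Its normalized counts were 808 and 899 in the fasted and 646 and 717 in the sucrose-fed libraries labelled MED13-LKO, against 674 and 796, and 578 and 673, in the same order in controls. The values are sums over the gene and do not show whether single exons were lost. Sucrose feeding changed *Med13* in the libraries labelled MED13-LKO by −0.32 (SE 0.20, adjusted p = 0.399), which was not called. Among the 7 Mediator kinase module genes, 2 were called lower after sucrose, the paralog *Med13l* (342 and 409 fasted, 244 and 195 with sucrose) and the kinase *Cdk8* (899.9 and 992 fasted, 714 and 703 with sucrose). The fold changes were −0.77 (SE 0.15, adjusted p = 0.0165) for *Med13l* and −0.41 (SE 0.095, adjusted p = 0.0327) for *Cdk8*. Over all genes 3.48% were called lower. *Cdk8* lost its call in each fit without 1 mouse and after scaling to equal 75th percentiles. *Med12* and cyclin C (*Ccnc*) were at −0.40 and 0.39 and were not called. Hepatocyte markers (*Alb*, *Apoa1*, *Ttr*, *Hnf4a*, *Cyp2e1*, *Cps1*) were abundant in every library, and 0 of the 6 were called.

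Between sucrose-fed and fasted livers labelled MED13-LKO, 706 of 12366 genes (5.71%) were called, of which 276 (2.23%) were higher and 430 (3.48%) lower with sucrose. Increases of more than 1 on the log2 scale were called in 122 genes (0.987% of those tested) and decreases of that size in 120 (0.97%). The median change of the genes called was 0.91 for those higher and −0.74 for those lower, and the median over all genes tested was 0.0045. At an unadjusted p under 0.05, 2577 genes passed. The share of calls that were higher was 39.1%, but after scaling the libraries to equal 75th percentiles it was 50.7%, with 341 higher and 331 lower, so the balance of small increases and decreases depended on the scaling. Leaving out any 1 of the 4 mice reduced the calls to between 144, without the sucrose mouse 2, and 289, without the fasted mouse 1. In all 706 genes the values of the sucrose and fasted mice did not overlap, as was the case in 27.8% of all genes tested in each direction.

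**Figure D1:**
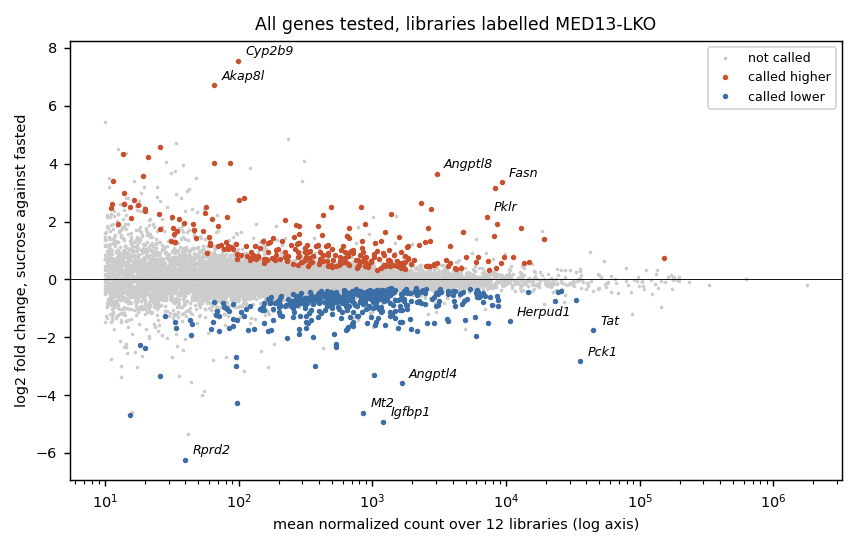
Log2 fold change of sucrose against fasted in the libraries labelled MED13-LKO (vertical axis) against the mean normalized count over 12 libraries (horizontal log axis) for 12366 genes, each a point, with called genes in colour. Among the genes with names on the plot, *Angptl8* and *Fasn* lie high and *Igfbp1*, *Mt2*, *Angptl4* and *Pck1* low, and *Akap8l* and *Rprd2* were each listed at 0 in one of the groups.

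The 12 largest increases were those of *Cyp2b9*, *Akap8l*, *Nlrp12*, *Atp2b2*, *Angptl8*, *Fasn*, *Elovl6*, *Gna14*, *Col15a1*, *Mid1ip1*, *Hcn3* and *Inhba*, of which *Fasn*, *Elovl6* and *Mid1ip1* belong to lipogenesis. *Cyp2b9*, a cytochrome P450 on chromosome 7 (26173411 to 26210661, GRCm38) that is known as female-biased in mouse liver, was at 3.1 and 0.929 normalized counts when fasted and at 485 and 576 with sucrose. Its fitted change was 7.56 (SE 1.30, adjusted p = 0.00974), and 26.1% of its 31-base subsequences occur in other genes, so that reads could be shared with relatives. In the fructose-fed libraries labelled MED13-LKO it was at 0.985 and 0, and in sucrose-fed controls at 12 and 21.7. In fructose-fed controls it was at 1.1 and 77.6. Its values were thus highest in the sucrose-fed livers labelled MED13-LKO among the groups named here. The difference in the *Cyp2b9* response between genotypes was 6.44 (SE 1.83, adjusted p = 0.367) and was not called. Fructose against sucrose in the libraries labelled MED13-LKO was at −8.55 (SE 1.30, adjusted p = 0.0913), also without a call.

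*Angptl8*, which encodes a secreted protein that restrains lipoprotein lipase after meals, lies on chromosome 9 from 21835510 to 21837347. It was at 549 and 323 normalized counts when fasted and at 5359.6 and 5239.6 with sucrose. The change was 3.65 (SE 0.25, adjusted p = 0.000238), the smallest adjusted p among the 24 genes with the largest changes, shared with *Mid1ip1* and *Depp1*. *Inhba*, the activin A subunit, rose from 123 and 129 to 738 and 683, a change of 2.49 (SE 0.49, adjusted p = 0.0174). Both are secreted factors, and both were chosen among genes whose groups did not overlap.

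*Atp2b2*, a plasma membrane calcium pump, was at 9.59 and 6.04 when fasted and at 116 and 163 with sucrose, a change of 4.01 (SE 0.39, adjusted p = 0.0012). *Gna14*, a G protein alpha subunit, was at 60.9 and 34.3, and at 345 and 304 (2.80, SE 0.32, adjusted p = 0.00165). *Hcn3*, an ion channel subunit, rose from 155 and 103 to 593 and 879 (2.50, SE 0.30, adjusted p = 0.00224). *Gna14* was at 75 and 65 in sucrose-fed controls, below every sucrose library labelled MED13-LKO, whereas *Atp2b2* and *Hcn3* were high in sucrose-fed controls too. The difference in the *Gna14* response between genotypes was 2.47 (SE 0.45, adjusted p = 0.116) and was not called.

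*Nlrp12*, a member of the NLR family of innate immune regulators, was at 2.06 and 0.928 when fasted and at 42.3 and 35.5 with sucrose, a fitted change of 4.03 (SE 0.47, adjusted p = 0.00189). *Akap8l*, which encodes a nuclear protein related to an anchor of protein kinase A, was listed at 0 in both fasted libraries and was at 126 and 85.3 with sucrose (adjusted p = 0.0054). No fold is given for it, since the fasted values are 0. *Col15a1*, a collagen of basement membranes, was at 34 and 27.7 and at 206 and 213 (2.73, SE 0.55, adjusted p = 0.0198). Groups that do not overlap were a condition for naming these genes, and the fasted values of *Nlrp12* correspond to only a few reads.

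The largest decreases held genes that insulin is known to repress, both liver metallothioneins and several stress-response genes. *Igfbp1*, which encodes a circulating binding protein of insulin-like growth factors and is a textbook FOXO1 target, lies on chromosome 11 from 7197782 to 7202546. It was at 1239 and 2860.2 normalized counts when fasted and at 62.6 and 60.0 with sucrose. Its fall of −4.92 (SE 0.64, adjusted p = 0.00281) was the largest among the genes named by size of change. The metallothionein genes *Mt2* and *Mt1* are neighbours on chromosome 8. *Mt2* went from 3881 and 2404 to 80.6 and 190.2 (−4.61, SE 0.39, adjusted p = 0.000628). *Mt1* went from 3073 and 2186 to 169.9 and 411 (−3.29, SE 0.41, adjusted p = 0.00245). For both, even the higher sucrose mouse lay far below the lower fasted mouse.

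*Angptl4*, a secreted inhibitor of lipoprotein lipase that is induced by fasting, was at 4119 and 4609 when fasted and at 385 and 342 with sucrose, a change of −3.58 (SE 0.50, adjusted p = 0.00396). It fell while its relative *Angptl8* rose. *Depp1*, a FOXO target linked to autophagy, was at 499 and 491 and at 53.1 and 71.8 (−2.98, SE 0.20, adjusted p = 0.000238). *Ddit4*, an inhibitor of mTORC1 signalling, was at 549.5 and 1315 and at 156 and 177 (−2.35, SE 0.40, adjusted p = 0.00986). *Cdkn1a*, the cell cycle inhibitor p21, was at 442 and 266 and at 45.3 and 39 (−3.00, SE 0.60, adjusted p = 0.0201). Lower values in both sucrose-fed mice than in both fasted mice were a condition for naming these genes.

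The remaining genes among the 12 largest decreases were *Fam107a* (−4.28), *Maff* (−2.67), *Bcl6* (−2.23), *Tmc7* (−2.03) and the gluconeogenic gene *Pck1*. *Bcl6*, a transcriptional repressor, was at 1203 and 787 in fasted mice and at 139 and 305 after sucrose. The fructose-fed mice of the genotype had *Bcl6* values of 783 and 590.1. Fructose against sucrose was at 1.72 for *Bcl6* (SE 0.44, adjusted p = 0.34), without a call. Of the 24 genes with the largest changes, 15 stayed called whichever of the 4 mice was left out. *Col15a1*, *Inhba*, *Fam107a*, *Cdkn1a* and *Pck1* were called in none of those 4 fits, with adjusted p-values of 0.0741 to 0.13, 0.0843 to 0.107, 0.0814 to 0.13, 0.0705 to 0.137 and 0.139 to 0.243. *Cyp2b9*, *Ddit4*, *Bcl6* and *Tmc7* were called in 1 of the 4, with highest adjusted p-values of 0.0855, 0.0713, 0.124 and 0.0688.

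**Figure D2:**
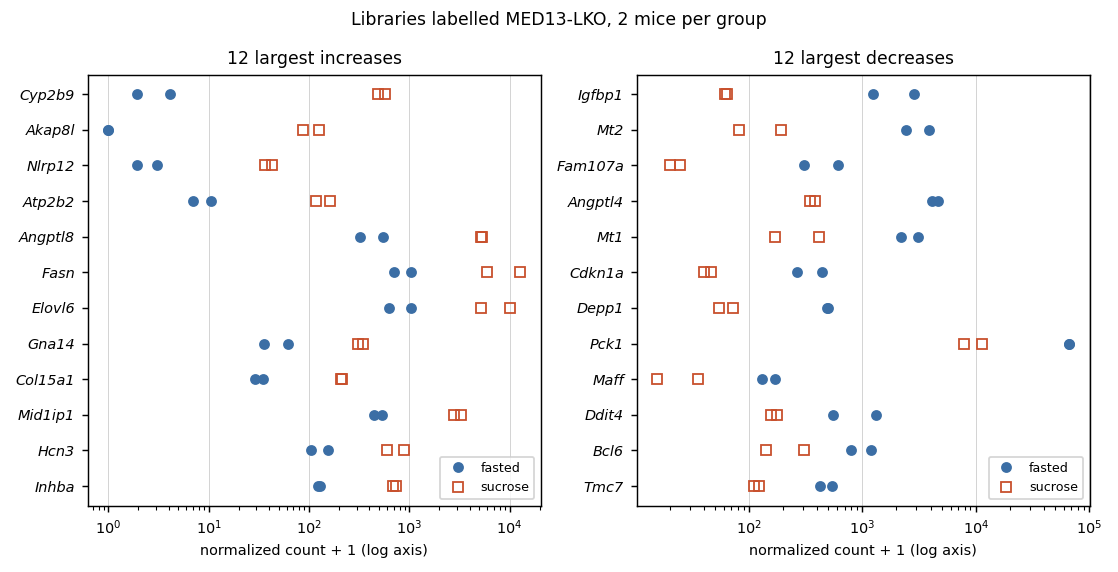
Normalized count + 1 (horizontal log axis) of the 12 genes with the largest called increases (left) and decreases (right) in the libraries labelled MED13-LKO, with filled circles for the 2 fasted mice and open squares for the 2 sucrose-fed mice. In all 24 genes the squares lie on one side of the circles, which was a condition of the choice. The values go from 62.6 and 60.0 against 1239 and 2860.2 for *Igfbp1* to 485 and 576 against 3.1 and 0.929 for *Cyp2b9*.

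The genes of de novo lipogenesis, which turn the carbon of sugar into fatty acids, rose together in part. Of 14 genes, all tested, 7 were called higher and 0 lower, beside 2.23% called higher over all genes, and the median change was 1.65. *Fasn*, which encodes fatty acid synthase on chromosome 11, was at 1050.3 and 699 normalized counts when fasted and at 5983 and 12721 with sucrose (3.35, SE 0.37, adjusted p = 0.0016). *Elovl6*, which elongates palmitate, was at 1030.4 and 628 and at 5166 and 10035 (3.16, SE 0.41, adjusted p = 0.00269). *Mid1ip1*, whose protein promotes the assembly of acetyl-CoA carboxylase, was at 528 and 445 and at 2778 and 3250 (2.63, SE 0.18, adjusted p = 0.000238). For these genes the lower sucrose mouse was several-fold above the higher fasted mouse.

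*Srebf1*, the gene of SREBP-1, was at 3170.1 and 1978 when fasted and at 8685 and 10315 with sucrose (1.92, SE 0.27, adjusted p = 0.00404). *Acly*, which makes cytosolic acetyl-CoA from citrate, was at 3148 and 2634 and at 7179 and 13697 (1.78, SE 0.36, adjusted p = 0.0208). *Acaca*, acetyl-CoA carboxylase 1, was at 1909 and 1249 and at 3822 and 6143 (1.65, SE 0.28, adjusted p = 0.00968). The malic enzyme gene *Me1*, a source of NADPH, changed least of the 7 (0.78, SE 0.17, adjusted p = 0.0275). In these 7 genes both sucrose-fed mice lay above both fasted mice, as in every gene called higher. The 2 sucrose-fed mice differed in the size of the response.

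The other 7 members were not called. *Scd1*, the stearoyl-CoA desaturase, was at 13233 and 9808 when fasted and at 13932 and 34362 with sucrose (0.94, SE 0.50, adjusted p = 0.32), so that 1 sucrose mouse was close to the fasted ones. *Thrsp* was at 11640.4 and 2971 and at 13669 and 25296 (1.66, SE 0.52, adjusted p = 0.097), with the fasted mouse 1 near the sucrose range. Without 1 mouse the change of *Thrsp* lay between 0.68 and 2.65, highest without that fasted mouse. With all mice, *Thrsp* was called under no other setting. *Pnpla3*, at 7.23 and 10.2 and at 32.4 and 81.9, had a fitted change of 2.45 with an adjusted p of 0.0753. *Mlxipl*, the gene of ChREBP, was at 3799 and 3464 and at 3784 and 4789 (0.23, SE 0.13, adjusted p = 0.361). *Acss2*, *Acacb* and *Slc25a1* were at 0.31, 0.30 and 0.10. A further list holds genes that were picked for single measurements in the same project and is no independent evidence of direction. Of its 13 genes, 3 (23.1%) were called higher (*Fasn*, *Srebf1* and *Mlx*) and 2 (15.4%) lower (*Pck1* and *Foxo1*), beside 2.23% and 3.48% over all genes. *Mlx*, the partner of ChREBP and no member of the lipogenesis list, was at 621 and 590.5 and at 791 and 893 (0.47, SE 0.12, adjusted p = 0.0455), and it was called in 0 of the 4 fits without 1 mouse.

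The spread between mice had a pattern in this pathway. The sucrose mouse 2 was above the sucrose mouse 1 in 13 of the 14 lipogenic genes, with a median log2 difference of 0.63, and in 23 of 25 cholesterol synthesis genes, with a median of 0.38. The fasted mouse 2 was above the fasted mouse 1 in 2 of 14 and 0 of 25 of them, with medians of −0.34 and −0.43. In the PPARα list the sucrose mouse 2 was above the other in 1 of 23 genes. These genes are read in the same libraries and are not independent. When 1 mouse was left out, between 4 and 7 lipogenic genes were called. Without the sucrose mouse 2, the adjusted p was 0.165 for *Acly*, 0.0915 for *Acaca* and 0.205 for *Me1*, the highest of their 4 values.

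**Figure D3:**
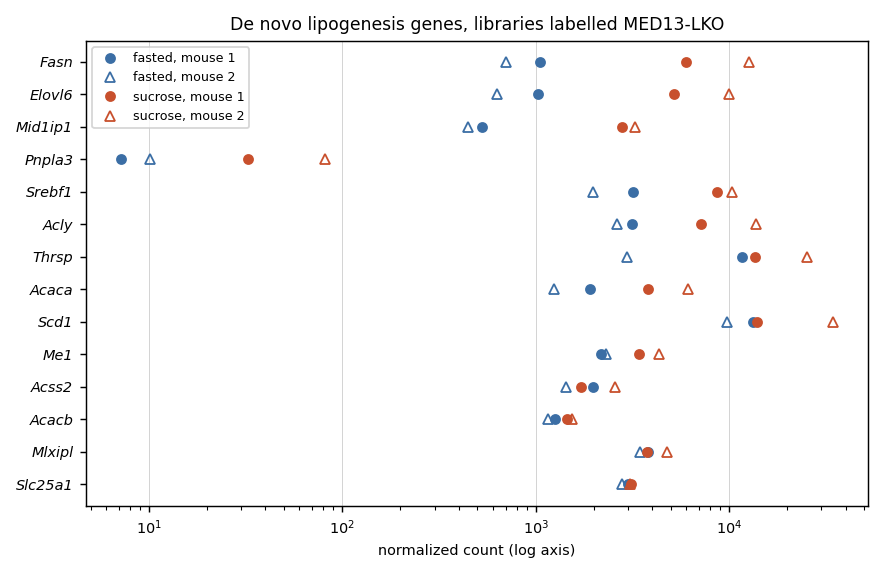
Normalized counts (horizontal log axis) of 14 de novo lipogenesis genes in the 4 libraries labelled MED13-LKO, ordered by log2 fold change, with blue for fasted, orange for sucrose, circles for mouse 1 and triangles for mouse 2 of each group. *Fasn*, *Elovl6* and *Mid1ip1* separate widely, whereas *Scd1* of the sucrose mouse 1 (13932) sits beside the fasted mouse 1 (13233).

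Of 25 genes of cholesterol synthesis and related SREBP2 targets, 2 (8%) were called higher, beside 2.23% over all genes, and 0 lower, with a median of 0.28. The count was between 0 and 2 under the other settings and without 1 mouse. *Sc5d*, a late sterol desaturase, was at 5484 and 4455 when fasted and at 6475 and 8477 with sucrose (0.58, SE 0.13, adjusted p = 0.0305). Its groups did not overlap, as in every gene called. Without the sucrose mouse 2 *Sc5d* was not called, with an adjusted p of 0.208. Of the 4 genes of polyunsaturated fatty acid synthesis (*Fads1*, *Fads2*, *Elovl2*, *Elovl5*) limma called 0 in either direction and 0 passed an unadjusted p under 0.05. Their changes ran from −0.089 to 0.24.

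Genes that take glucose and fructose into the pathway were higher in part. *Pklr*, the liver pyruvate kinase and a classical ChREBP target, was at 2695 and 1502 normalized counts when fasted and at 7582 and 10864 with sucrose (2.17, SE 0.25, adjusted p = 0.00181). Of 8 genes of glucose uptake and glycolysis, 2 (25%) were called higher, beside 2.23% over all genes, *Pklr* among them. The glucose transporter gene *Slc2a2* was at 5147 and 2868 and at 5453 and 7143 (0.70, adjusted p = 0.1). Without 1 mouse its change lay between 0.28 and 1.12, and with all mice it was called under no other setting.

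Of 5 fructose metabolism genes, 3 (60%) were called higher, beside 2.23% over all genes. *Tkfc*, which phosphorylates glyceraldehyde, was at 3033 and 2048 and at 5941 and 8431 (1.51, SE 0.22, adjusted p = 0.00481). Ketohexokinase (*Khk*) was at 998 and 668 and at 1289 and 1660 (0.84, SE 0.21, adjusted p = 0.0489). The groups did not overlap in these genes, as in every gene called. *Tkfc* stayed called whichever mouse was left out, whereas the adjusted p of *Khk* reached 0.287.

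In glycogen metabolism 1 of 11 genes (9.09%) was called higher, beside 2.23% over all genes, and 0 lower. *Pygl*, the liver glycogen phosphorylase, was at 6486 and 5067 when fasted and at 9384 and 10223 with sucrose (0.77, SE 0.12, adjusted p = 0.00683), and at an adjusted p of 0.0686 without the sucrose mouse 2. *Gys2*, the liver glycogen synthase, was at 5695 and 5594 and at 4391 and 5568 (−0.19, SE 0.13, adjusted p = 0.458). The glycogen-targeting subunits of protein phosphatase 1, *Ppp1r3b* and *Ppp1r3c*, were at 0.77 and −1.15 and were not called. Without 1 mouse *Ppp1r3b* lay between 0.24 and 1.30 and *Ppp1r3c* between −1.78 and −0.52. With all mice, neither was called under any other setting.

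Genes of glucose production fell only in part. Of 11 gluconeogenesis genes, 3 (27.3%) were called lower, beside 3.48% over all genes, and 0 higher, with a median of −0.31. *Pck1*, phosphoenolpyruvate carboxykinase, lies on chromosome 2 from 173153048 to 173159273 and was at 66545 and 66143 normalized counts when fasted and at 11275 and 7814 with sucrose. The change was −2.82 (SE 0.71) with an adjusted p of 0.0485, just inside the threshold, and the call was lost after scaling to equal 75th percentiles, without the filter on low values, with 0.1 added in place of 1, with no trend on the mean and with the replicate block. *Tat*, tyrosine aminotransferase, was at 66664 and 62038 and at 17430.3 and 20887 (−1.75, SE 0.22, adjusted p = 0.00269). *Sds*, serine dehydratase, was at 3764 and 4076 and at 1488 and 1248 (−1.52, SE 0.27, adjusted p = 0.0119). *Tat* stayed called whichever mouse was left out, and *Pck1* and *Sds* did not, with highest adjusted p-values of 0.243 and 0.107.

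*G6pc*, the glucose-6-phosphatase gene, whose product performs the last step of glucose release, was not called. It was at 5887 and 9423 when fasted and at 5895 and 6498 with sucrose (−0.27, SE 0.28, adjusted p = 0.654), so the groups overlapped. In controls it went from 7865 and 10424 to 3077 and 3178 (−1.53, adjusted p = 0.0107). The difference between the genotypes' responses was 1.27 (SE 0.40) with an adjusted p of 0.419, and was not called over all genes. *Ppargc1a*, a coactivator of gluconeogenesis, was at 479 and 454 and at 227 and 298 (−0.84, SE 0.22, adjusted p = 0.0563). *Got1* and *Fbp1* were at −0.65 and 0.39.

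Insulin signalling genes and FOXO1 targets were the list with the highest share of calls among those whose members were tested. Of its 11 genes tested, of 12 listed, 9 (81.8%) were called lower, beside 3.48% over all genes, and the median was −1.38. *Irs2*, an insulin receptor substrate, was at 263 and 489.9 normalized counts when fasted and at 101 and 92.2 with sucrose (−1.88, SE 0.28, adjusted p = 0.00538). *Foxo1* itself was at 1564 and 1355 and at 506 and 533 (−1.49, SE 0.22, adjusted p = 0.00541). *Klf15*, a fasting-induced transcription factor, was at 2687 and 2810.5 and at 1041 and 1076 (−1.38, SE 0.20, adjusted p = 0.00538). Each of them had sucrose values close to each other and below both fasted values.

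*Foxo3* (−1.03), *Sesn1* (−0.83) and the insulin receptor gene *Insr* (−0.43) were also called lower. *Pdk4*, a kinase that restrains pyruvate oxidation, was at 267 and 419 and at 61.6 and 156 (−1.76, SE 0.38, adjusted p = 0.0269), and the pseudokinase gene *Trib3* was at 181 and 201 and at 67.3 and 78.4 (−1.38, SE 0.31, adjusted p = 0.0304). *Insr* lost its call after scaling to equal 75th percentiles. *Irs1* and *Trib1* were at −0.017 and 0.37 and were not called. When any 1 mouse was left out, 4 or 5 of the 11 genes were called, with *Igfbp1*, *Foxo1* and *Klf15* called in each of the 4 fits.

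The 250 bases before the annotated start of 4 genes are shown because, among the members that hold a searched motif, these had the largest called increases of the lipogenic and cholesterol lists and the largest called decreases of the glucose production, FOXO1 and PPARα lists. Capitals mark the motif. *Elovl6* (higher) holds the forkhead motif GTAAACA 123 to 117 bases before the start, and *Sc5d* (higher), *Irs2* and *Klf15* (both lower) hold the E-box CACGTG. The sequences are from RefSeq on GRCm38.p6, 5′ to 3′ on the gene's strand: *Elovl6* at chr3:129532136-129532385 (plus), *Sc5d* at chr9:42264301-42264550 (minus), *Irs2* at chr8:11008930-11009179 (minus) and *Klf15* at chr6:90462326-90462575 (plus).
Elovl6: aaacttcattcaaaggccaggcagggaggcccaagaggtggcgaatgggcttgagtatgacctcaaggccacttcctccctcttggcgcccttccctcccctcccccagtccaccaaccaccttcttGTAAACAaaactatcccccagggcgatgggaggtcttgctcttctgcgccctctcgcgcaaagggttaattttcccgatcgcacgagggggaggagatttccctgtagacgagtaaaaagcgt
Sc5d: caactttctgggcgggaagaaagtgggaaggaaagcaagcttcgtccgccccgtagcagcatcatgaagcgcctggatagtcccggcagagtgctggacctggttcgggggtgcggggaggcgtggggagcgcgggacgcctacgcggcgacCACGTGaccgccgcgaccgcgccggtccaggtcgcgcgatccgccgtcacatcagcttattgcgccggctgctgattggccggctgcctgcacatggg
Irs2: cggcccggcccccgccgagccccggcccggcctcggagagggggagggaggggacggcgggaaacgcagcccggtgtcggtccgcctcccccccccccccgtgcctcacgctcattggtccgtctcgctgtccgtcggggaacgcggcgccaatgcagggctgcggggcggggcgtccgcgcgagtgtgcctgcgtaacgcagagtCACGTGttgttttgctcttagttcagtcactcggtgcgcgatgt
Klf15: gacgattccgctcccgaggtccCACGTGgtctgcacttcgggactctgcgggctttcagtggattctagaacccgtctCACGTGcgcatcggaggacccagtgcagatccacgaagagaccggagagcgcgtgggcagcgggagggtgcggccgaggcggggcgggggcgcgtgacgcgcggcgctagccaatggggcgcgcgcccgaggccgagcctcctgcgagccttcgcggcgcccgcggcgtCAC
In *Klf15* another E-box spans the start, and its first 3 bases are the capitals at the end of the line. Windows of 300 bases, from 250 before to 50 after the start, were searched on both strands for 9618 tested genes that had an entry. The E-box was found in 11.7% of the genes called higher, 13.8% of those called lower and 10.1% of all. The forkhead motif was found in 2.43%, 4.71% and 2.58%, and the sterol regulatory element core TCACNCCAC in 1.46%, 0.882% and 1.09%. The motif of ATF4 with C/EBP, TGATGNAAT, was found in 1.94%, 0% and 0.478%, and the heat shock element in 0.485%, 0% and 0.333%. Shares are descriptions of letters in a short window and name no bound factor.

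The fasting targets of PPARα, the receptor that drives fatty acid oxidation, split into a few strong decreases and a majority without a call. Of 23 genes, 5 (21.7%) were called lower, beside 3.48% over all genes, and 0 higher, with a median of −0.14. Beside *Angptl4* and *Pdk4*, these were *Pex11a*, *Cpt1a* and *Creb3l3*. *Pex11a*, a factor of peroxisome division, was at 3178 and 3324 when fasted and at 1615 and 1579 with sucrose (−1.02, SE 0.17, adjusted p = 0.0092). *Cpt1a*, which admits fatty acids into mitochondria, was at 8719.6 and 8168 and at 5879 and 5176 (−0.61, SE 0.16, adjusted p = 0.0491). *Fgf21* was at 50.7 and 34.4 and at 90.2 and 30.3, with overlapping groups. When 1 mouse was left out, 1 or 2 of the 23 genes were called, and *Cpt1a* lost its call also after scaling to equal 75th percentiles.

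Among 14 tested genes of triglyceride and lipid droplet metabolism, 4 (28.6%) were called lower and 1 (7.14%) higher, beside 3.48% and 2.23% over all genes. The list had a median of −0.16. *Lpin2*, a phosphatidate phosphatase, was at 8483 and 10198 when fasted and at 2283 and 2551 with sucrose (−1.95, SE 0.19, adjusted p = 0.0012). *Plin5*, which coats lipid droplets in oxidative cells, was at 2302 and 2071 and at 752 and 828 (−1.47, SE 0.14, adjusted p = 0.0012). *Pnpla2*, the main triglyceride lipase, was at 1608 and 1738 and at 993 and 832 (−0.88, SE 0.12, adjusted p = 0.00348). *Lpin1* was at −1.49 (adjusted p = 0.0193) and the acyltransferase gene *Agpat2* at 0.45 (adjusted p = 0.0438). *Lpin2*, *Plin5* and *Pnpla2* stayed called whichever mouse was left out, whereas *Lpin1* was called in none of those fits and *Agpat2* in 1.

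**Figure D4:**
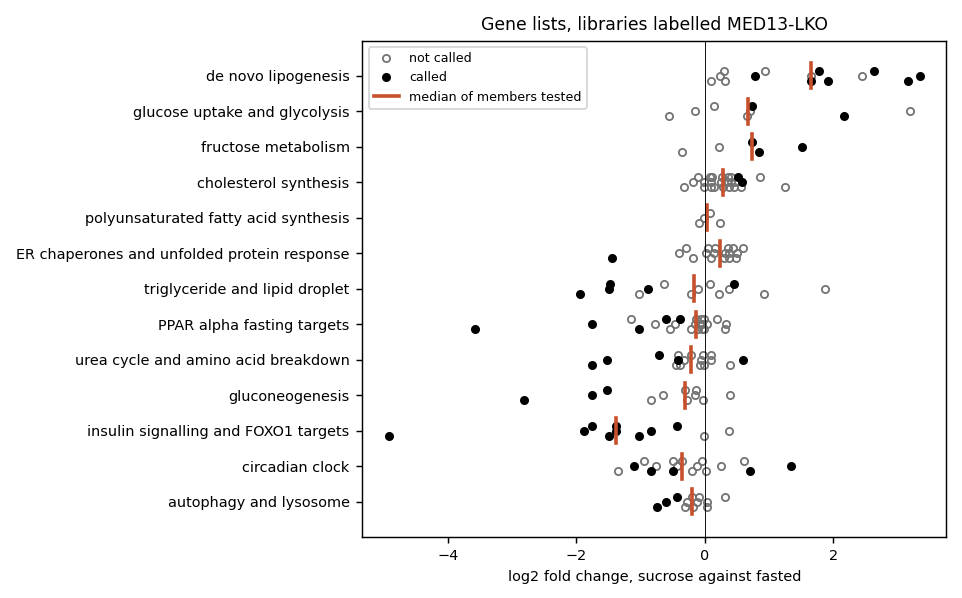
Log2 fold change of sucrose against fasted in the libraries labelled MED13-LKO (horizontal axis) for the tested members of 13 gene lists, with filled circles for called genes, open circles for the others and an orange bar for the median. The medians run from 1.65 for de novo lipogenesis to −1.38 for insulin signalling and FOXO1 targets, and the open circle at 3.19 is *Gckr*, a low-count gene listed at 0 in 1 fasted library.

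Amino acid breakdown was lower in part. Of 17 genes of the urea cycle and amino acid catabolism, 4 (23.5%) were called lower and 1 (5.88%) higher, with a median of −0.22. Over all genes 3.48% were called lower and 2.23% higher. *Tdo2*, the tryptophan dioxygenase of liver, was at 35712 and 34274 when fasted and at 20987 and 21546 with sucrose (−0.72, SE 0.12, adjusted p = 0.00916). Arginase (*Arg1*) was at 25051 and 24370.1 and at 16504 and 20578 (−0.42, SE 0.099, adjusted p = 0.0368). *Arg1* lost its call after scaling to equal 75th percentiles. The others called lower were *Tat* and *Sds*. Ornithine aminotransferase (*Oat*) was the one called higher, at 8922 and 8902 and at 13796 and 13218 (0.60, SE 0.10, adjusted p = 0.00988). Neither *Tdo2* nor *Oat* stayed called in a fit without 1 of the mice, with adjusted p-values of 0.0532 to 0.0666 and 0.0593 to 0.0751.

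Of 18 chaperones and other genes of the unfolded protein response, 0 were called higher and 1 (5.56%) lower, beside 3.48% called lower over all genes. This was *Herpud1*, a component of endoplasmic reticulum-associated degradation, at 16293 and 13776 when fasted and 5755 and 5249 with sucrose (−1.45, SE 0.16, adjusted p = 0.0016). The chaperone gene *Hspa5* was at 20549.5 and 15414 and at 23051 and 22715 (0.36, adjusted p = 0.6). In the cytosolic heat shock list 1 of 12 (8.33%) was called higher, beside 2.23% over all genes, the co-chaperone gene *Bag3* (0.90). Among 10 tested genes of ATF4 and amino acid synthesis the single call (10% of them, beside 3.48% over all genes) was *Trib3*, lower. *Bag3* and *Trib3* were called in none of the 4 fits without 1 mouse, nor with no trend on the mean. In ribosome biogenesis limma called 0 of 19 genes tested. At an unadjusted p under 0.05, 4 of the 19 passed, beside 2577 of all 12366 genes, a similar share. The median was 0.25, and 14 of the 19 had both sucrose values above both fasted values, beside 27.8% of all genes tested.

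Of 17 clock genes tested, 2 (11.8%) were called higher and 3 (17.6%) lower, beside 2.23% and 3.48% over all genes. *Bhlhe40*, a repressor that responds to feeding signals, was at 1264 and 1363 when fasted and at 3453 and 3211 with sucrose (1.34, SE 0.15, adjusted p = 0.00162). *Nfil3* was at 618 and 571 and at 325 and 237 (−1.10, SE 0.15, adjusted p = 0.00372), *Nr1d2* was at −0.83 (adjusted p = 0.0051) and *Cry2* at −0.50 (adjusted p = 0.0316). *Per1* was at 954 and 1062 and at 438 and 354 (−1.35, SE 0.40) without being called (adjusted p = 0.0818). *Cry2* was called in none of the 4 fits without 1 mouse. The later hour at which fed mice were killed applies to these genes in particular and cannot be told apart from feeding.

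Of 12 autophagy and lysosome genes, 3 (25%) were called lower, beside 3.48% over all genes, and 0 higher. The 3 were *Bnip3* (−0.60), *Gabarapl1* (−0.74) and *Map1lc3b* (−0.44). *Gabarapl1* and *Map1lc3b*, which encode proteins of the autophagosome membrane, were called in none of the 4 fits without 1 mouse. Of 15 secreted hepatokines tested, 3 (20%) were called higher and 2 (13.3%) lower, beside 2.23% and 3.48% over all genes. These were *Angptl8*, the activin E subunit gene *Inhbe* (463 and 285 fasted, 724 and 684 with sucrose, 0.95, adjusted p = 0.0403) and *Lect2* (0.55, adjusted p = 0.0263), and *Igfbp1* and *Angptl4*. In bile acid synthesis and transport 1 of 10 (10%) was called lower, beside 3.48% over all genes. This was the sterol 27-hydroxylase *Cyp27a1* (9353 and 8817, then 5882 and 6414, −0.56, adjusted p = 0.0092). *Cyp7a1*, the rate-limiting enzyme, was at 3638 and 2489 and at 5948 and 5458 (0.92, SE 0.37) without a call (adjusted p = 0.19).

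Markers of other liver cells were read in the same libraries. Of 8 markers of sinusoidal endothelial cells 3 (37.5%) were called lower, beside 3.48% over all genes. These were *Clec4g* (−0.45), *Oit3* (−0.54) and *Bmp2* (−0.65). They were called in none of the 4 fits without 1 mouse, nor with no trend on the mean, and *Bmp2* also lost its call with the replicate block. The normalized counts of the 8 markers summed to 7068 and 7147 when fasted and 5624 and 5433 with sucrose, and in controls 5309 and 5568, and 5143 and 4555. Kupffer cell markers summed to 5529.8 and 6041, and 4782 and 4885, with 0 of 8 called by limma. The hepatocyte markers summed to 2158143 and 2159424 when fasted and to 1767467 and 1967929.8 with sucrose. Of 7 stellate cell markers 1 (14.3%) was called higher, beside 2.23% over all genes. This was *Col1a1*, which rose from 278 and 269 to 583 and 643 (1.16, SE 0.12, adjusted p = 0.0014), while the sum of the 7 was 7076 and 7404, and 6501 and 7118. In bulk tissue, fewer cells of a type and less RNA per cell cannot be told apart. The part of these shifts in the decreases above was not tested. Markers of T and NK cells, B cells and neutrophils were near the detection limit, with sums under 40 in each of the 4 libraries, and the adipocyte markers found in the table were at 0 when fasted and summed to 2.93 and 3.44 with sucrose. Red cell genes summed to 10527 and 9409.5 when fasted and to 5444 and 9083 with sucrose. The cholangiocyte markers in the table summed to 576 and 544, and 729 and 698, and the proliferation markers to 84.6 and 130.3, and 123 and 90.1, with 0 called in either list.

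Some genes with a sex bias in mouse liver stood at different levels in the genotypes, fed or fasted. The male-biased major urinary protein gene *Mup7* was at 1727 and 2454 when fasted and 1114 and 1001 with sucrose in the libraries labelled MED13-LKO, against 358023 and 482992, and 151567 and 142469, in controls. The female-biased *Cyp2a4* was at 2256 and 4393, and 5958 and 3327, against 39.6 and 26.5, and 21 and 13.4. When fasted, the female-biased *Cyp2b9* was not higher in the libraries labelled MED13-LKO, at 3.1 and 0.929 against 7.93 and 6.03 in controls. After sucrose it was at 485 and 576 against 12 and 21.7. The other members of these lists are not compared between the genotypes here. The Y-linked *Ddx3y*, *Uty*, *Kdm5d* and *Eif2s3y* were read in each of the libraries compared, and *Ddx3y* was at 1831 and 1683, and 1681 and 1865. With sucrose, 1 of 5 tested female-biased genes (20%) was called higher (*Cyp2b9*), beside 2.23% over all genes. Of 9 male-biased genes, 0 were called in either direction.

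The control mice show the same feeding contrast without Cre. There 1060 genes (8.57%) were called, 600 (4.85%) higher and 460 (3.72%) lower. In the lipogenesis list 12 of 14 genes were called higher in controls, with a median of 2.30, beside 7 and 1.65 in the libraries labelled MED13-LKO. *Fasn* reached 35838 and 19511 in sucrose-fed controls and *Acly* 52529 and 24448. In gluconeogenesis 6 of 11 were called lower in controls, with a median of −1.30, beside 3 and −0.31. In the urea cycle list 10 of 17 were called lower in controls and 4 in the libraries labelled MED13-LKO. In the insulin and FOXO1 list the order was the other way, with 5 lower in controls and 9 in the libraries labelled MED13-LKO. Such counts do not test a difference, and limma called 0 members of the lipogenesis, gluconeogenesis or FOXO1 lists in the test of the difference. At an unadjusted p under 0.05, 5, 2 and 2 members passed there, beside 1055 of all 12366 genes. For *Fasn* that difference was −1.13 (SE 0.52, adjusted p = 0.59), and for *Acacb* −2.05 (SE 0.50, adjusted p = 0.292).

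The response to sucrose differed between genotypes in 18 genes (0.146%), 14 (0.113%) with a higher change than in controls and 4 (0.0323%) with a lower one, and 1055 genes passed an unadjusted p under 0.05. This test uses the same fasted and sucrose libraries as the comparison above. The count was 2 without either sucrose-fed MED13-LKO mouse, 4 to 7 without any 1 of the fasted mice and 28 without the control sucrose mouse 2. *Oat* and *Slc25a15*, the enzyme and the mitochondrial carrier that handle ornithine, were both among them. *Oat* went from 27508 and 22253 to 15199.9 and 15719 in controls, a fall, and rose from 8922 and 8902 to 13796 and 13218 in the libraries labelled MED13-LKO. The difference was 1.28 (SE 0.15, adjusted p = 0.0172). *Slc25a15* went from 6054 and 6626 to 4204 and 4098 in controls and from 3358 and 3191 to 3515 and 3464 in the libraries labelled MED13-LKO, a difference of 0.70 (SE 0.10, adjusted p = 0.0414). In both genes the genotypes were far apart when fasted and close after sucrose.

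*Nnmt*, nicotinamide N-methyltransferase, fell in controls from 3602 and 3196 to 1216 and 1141. In the libraries labelled MED13-LKO it was at 2489 and 2382 when fasted and at 2336 and 2468 with sucrose, and the difference was 1.51 (SE 0.13, adjusted p = 0.00245). *Paqr9*, a membrane receptor family gene, rose in both genotypes, from 1298 and 1411 to 5508 and 6260.1 in controls and from 2140.1 and 2038 to 4887 and 4345 in the libraries labelled MED13-LKO. Its difference was −0.98 (SE 0.13, adjusted p = 0.0205). The RNA helicase gene *Ddx17* rose in controls from 395 and 457 to 857 and 982, and was at 962 and 770.2, then 795 and 750 in the libraries labelled MED13-LKO (difference −1.26, SE 0.19, adjusted p = 0.0414). *Gprin3* was at 548 and 546, then 1277 and 1084 in controls and at 774 and 913, then 803 and 920.2 in the other genotype, with a difference of −1.07 (SE 0.16, adjusted p = 0.0452). *Nnmt* stayed called whichever of the 8 mice was left out, *Oat* in 4 of the 8 fits, *Paqr9* in 2, *Gprin3* in 1, and *Ddx17* and *Slc25a15* in 0. Of the 8 other settings, *Gprin3* lost its call in 6, including equal 75th percentiles, *Ddx17* and *Slc25a15* in 4 each, and *Paqr9* in 3.

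In 10 of the 18 genes both sucrose libraries labelled MED13-LKO were the highest and both sucrose-fed controls the lowest of the 12 libraries, and 14 genes of all tested had that order. The 10 were the immunoglobulin genes *Ighv1-50* and *Ighg1* and 8 pseudogenes. *Ighv1-50* was at 35.3 and 32 when fasted and 189.5 and 196 with sucrose in the libraries labelled MED13-LKO, against 33.3 and 32.4, and 1.02 and 0, in controls (difference 7.06, SE 0.49, adjusted p = 0.000672). *Ighg1* was at 31 and 28.8 and at 136 and 173, against 25.9 and 44.6, and 4.02 and 0 (difference 6.29, SE 0.94, adjusted p = 0.0414). The pseudogenes share 16.9% to 91.2% of their 31-base subsequences with other genes, and *Ighv1-50* shares 69.2%, so their reads are uncertain. The summed B cell markers were 22.7 and 31.8 in the sucrose libraries labelled MED13-LKO and 36.7 and 29.1 in the fasted ones. *Nlrp12* went from 165 and 186 to 44 and 90.7 in controls, a difference of 5.49 (SE 0.66, adjusted p = 0.0185). *Rprd2* was listed at 0 in both sucrose libraries labelled MED13-LKO and in both fasted controls, with 34.1 and 159, and 22 and 81.4 in the other pairs. *Ighv1-50* stayed called whichever of the 8 mice was left out, *Rprd2* in 5 of the 8 fits, *Nlrp12* in 3 and *Ighg1* in 2, with an adjusted p of up to 0.274 for *Ighg1*. *Ighg1* also lost its call in 4 of the other settings, *Nlrp12* with 0.1 added and *Rprd2* with 10 added. With means of 48.9 and 39.8, *Ighg1* and *Rprd2* were not tested in the setting with a mean of at least 50.

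**Figure D5:**
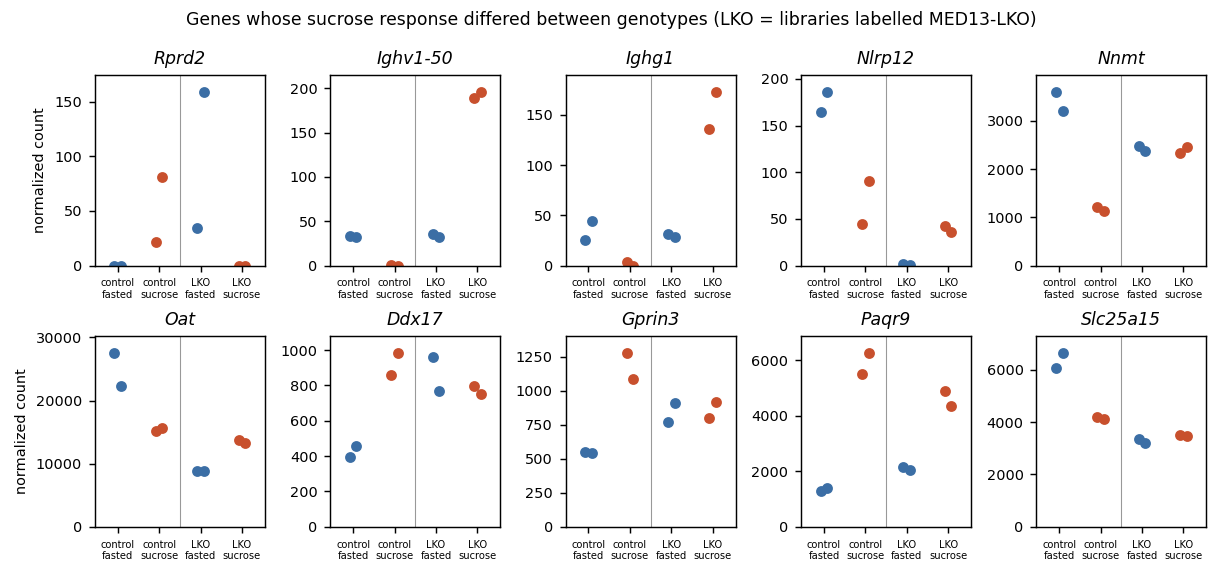
Normalized counts (vertical axes, each from 0) of the 10 named genes whose change with sucrose differed between genotypes, with 1 point per mouse, blue for fasted and orange for sucrose, and controls left of the line. *Oat* falls in controls and rises in the libraries labelled MED13-LKO, *Nnmt* falls to 1216 and 1141 in controls while its MED13-LKO points stay level, and *Ighv1-50* and *Ighg1* are highest in the sucrose libraries labelled MED13-LKO.

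The fructose-fed and sucrose-fed mice of the genotype were compared directly, and 5 of 12366 genes (0.0404%) were called, each lower with fructose. At an unadjusted p under 0.05, 951 passed. The comparison uses the same sucrose libraries, and *Nlrp12* was among the 5. *Phlda1*, a gene induced by growth factors, had fasted values of 464 and 408, sucrose values of 1775 and 2461 and fructose values of 426 and 433 (fructose against sucrose −2.28, SE 0.22, adjusted p = 0.00818). *Cish*, a feedback inhibitor of cytokine and growth hormone signalling, was at 132 and 139, 612 and 676, and 129 and 66.1 (−2.79, SE 0.31, adjusted p = 0.0177). *Col1a1* was at 304 and 323 with fructose (−0.96, SE 0.12, adjusted p = 0.0258). *Pmaip1* was at 20.8 and 14.4 with sucrose and was listed at 0 in both fructose libraries. In the libraries labelled MED13-LKO, *Phlda1* and *Cish* were thus high after sucrose and near the fasted level after fructose. In controls both were high after fructose too. *Phlda1* was at 2583 and 1677 in fructose-fed controls, against 420.1 and 471 in fasted controls. *Cish* was at 910.1 and 584, against 103 and 129. Each of the 5 calls between the sugars was lost in some other setting with all mice. *Phlda1* lost its call with no trend on the mean, and *Cish* there and with only the groups compared. *Col1a1* lost its call in both of these and with the replicate block. For *Pmaip1* it was lost with only the groups compared, with 10 added and with the replicate block. For *Nlrp12* it was lost with only the groups compared and with 0.1 added. Between the sugars limma called 0 of the 14 lipogenic genes, with 0 at an unadjusted p under 0.05, and *Fasn* was at 6768 and 9007 with fructose. Without the sucrose mouse 2, limma called 0 genes between the sugars, and 591 passed an unadjusted p under 0.05. Without the sucrose mouse 1 the count was 2, and without the fructose mouse 1 it was 9.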

How the data were processed

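Liver RNA of 12 mice in 6 groups of 2 was sequenced, and the 4 MED13-LKO libraries of the sucrose and fasted groups are described here. The deposited values have the unit signal: per the labels and the study's methods, the authors trimmed reads with Trim Galore 0.6.5, estimated transcript counts on mm10 with kallisto 0.46.0, summed them per gene and divided them by the size factors of DESeq2 1.24.0. The table has 16346 genes and 0 columns of other samples. Low values moved in steps, from which 16.1 M to 24.2 M reads per library were inferred, but only 51.9% to 58.9% of low values over all genes lay within 0.05 of a whole step, so counts were not recovered and no count test was run.

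Here log2(value + 1) of the 12366 genes that averaged 10 or more was fitted with limma 3.58.1 in R 4.3.3, as 1 model of the 6 groups with a trend on the mean, two-sided, with Benjamini-Hochberg adjustment over all genes and a threshold of 0.05. A fold change on this scale understates the change of low genes. The procedure was tested on simulated data. The labels name separate samples and do not give their litters or days, so p-values measure the spread between these samples. Genes named are members of 24 gene lists and 11 marker lists, the 12 largest called increases and decreases with a mean of at least 50 and groups that do not overlap, and all genes called in the difference between genotypes or between sugars, leaving out pseudogenes and Gm or Rik symbols. Some list members count in the totals and are not reported here by name. Members and lists were chosen with earlier results of these data known. The share of a gene's 31-base subsequences found in other genes was counted in GENCODE M21 transcripts, and 16222 genes of the table matched. Promoters came from RefSeq (GRCm38.p6). Alternatives changed the added constant (0.1 or 10), the filter (none or a mean of at least 50), the scaling (equal 75th percentiles), the trend, the libraries fitted and the replicate block, or left out 1 mouse.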

Additional observations from a re-analysis of the deposited data

Results flagged for a closer look

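The response to sucrose differed between the genotypes, by the test of the difference itself with limma and adjustment over all genes, in the 10 named genes below. Each difference is the log2 change in the libraries labelled MED13-LKO minus that in controls. It was 1.51 for *Nnmt*, 1.28 for *Oat* and 0.70 for *Slc25a15*, and −1.26 for *Ddx17*, −1.07 for *Gprin3* and −0.98 for *Paqr9*. *Ighv1-50* and *Ighg1*, at 7.06 and 6.29, were near 0 in sucrose-fed controls, so that their sizes depend on the constant added before the logarithm. *Nlrp12* had a difference of 5.49, with fasted MED13-LKO values of 2.06 and 0.928. *Rprd2* was listed at 0 in 4 of the 8 libraries, and its fitted −11.67 is no measure of a fold, since with other settings it lay between −18.25 and −5.54.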

How the results depend on the processing

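Between sucrose-fed and fasted livers labelled MED13-LKO the count of calls was 706 and lay between 598 and 764 under the other settings, except that 439 were called with no trend on the mean, of which 403 were among the 706. Beside the replicate block, given in the next paragraph, the other settings with all mice that moved a count by over 1.5 times were the control response with only the groups compared (698 in place of 1060), the difference between genotypes at a mean of at least 50 (5 in place of 18) and with only the groups compared (8), and fructose against sucrose with no trend (3 in place of 5) and with 10 added (8). Without 1 mouse the counts were 144 to 289 for the MED13-LKO response, 329 to 512 for the control response, 2 to 28 for the difference and 0 to 9 for fructose against sucrose. Part of the fall is built into these fits, which leave a group with 1 mouse that is assumed to vary like the others.

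The titles' replicate numbers were not found to pair the mice, since the deviations of the fasted and sucrose-fed MED13-LKO mice from their group means had a correlation of −0.0764. With the replicate block 598 genes were called in the MED13-LKO response and 933 in controls, and the counts moved to 7 in place of 18 in the difference and to 3 in place of 5 in fructose against sucrose.

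Of the 76 named genes called, 71 stayed called with equal 75th percentiles, 76 with 10 added and 47 with no trend, and 31 in each of the 4 fits without 1 mouse. Direction turned only in genes that were not called. With equal 75th percentiles *Irs1* was at 0.028. Without 1 mouse *G6pc* lay between −0.61 and 0.072, *Irs1* between −0.12 and 0.082, *Fgf21* between −0.45 and 1.09 and *Insig1* between −0.061 and 0.80. The causes were not tested. With 2 mice per group and summed values per gene, differences of the size of the spread between mice could not be resolved.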

Other observations

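Of 18 endoplasmic reticulum chaperones and other genes of the unfolded protein response, limma called 0 between fructose and sucrose in the libraries labelled MED13-LKO. At an unadjusted p under 0.05, 13 of the 18 passed, beside 951 of all 12366 genes, and these genes are read in the same libraries. *Hyou1*, a chaperone of the reticulum, was at 4499 and 3612 with sucrose and at 5656 and 10439 with fructose (0.93, SE 0.26, adjusted p = 0.393). *Creld2*, which encodes a stress-induced protein of the reticulum, was at 928 and 817 and at 1511 and 4669.6 (1.61, SE 0.44, adjusted p = 0.377). In both genes the fructose mouse 2 was the highest of the 4, and *Hspa5* was at 27113 in the fructose mouse 1 and at 63915 in the fructose mouse 2.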
